A study of Mus musculus with 45 samples.

Results

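The 10 genes described here are *Nr3c1*, *Fkbp5*, *Tsc22d3*, *Sgk1*, *Zbtb16*, *Klf9*, *Cdkn1a*, *Pdk4*, *Mt1* and *Mt2*. They were chosen by name, and each had to be listed in all 3 count tables, which hold 55450 genes for slice microglia, 47643 for adult microglia and 43411 for brain tissue. The question was how these genes behaved after lipopolysaccharide (LPS, a bacterial cell wall component) was given to the animal, in microglia and in brain tissue, and after single cytokines were added to microglia in cultured slices. All 45 libraries came from C57BL/6 mice and were sequenced as RNA. Per the paper, the adult mice of the LPS experiments were bought from Jackson Laboratories and the pregnant dams of the pups from Charles River Laboratories.

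Adult microglia were sorted from female mice of 10 to 15 weeks, 24 h after an intraperitoneal injection of 1 mg/kg LPS (4 libraries) or of PBS (4 libraries). Brain tissue was taken from mice aged 10 to 15 weeks that had received 1 mg/kg LPS 24 h earlier (4 libraries) or no treatment at all (4 libraries), so its control did not share the injection. Slice microglia were sorted from brain slices of neonatal pups kept in culture for 2 weeks, with 2 to 3 slices pooled per library, after 24 h in medium (9 libraries), in 50 ng/mL tumor necrosis factor (TNF, 11 libraries) or in 20 ng/mL granulocyte-macrophage colony-stimulating factor (GM-CSF, 9 libraries). Both kinds of microglia were sorted as CD11b high, CD45 intermediate cells. All slice groups shared a culture medium with horse serum, and their titles carry a code (1A, 1B, 2A or 2B) whose meaning the labels do not give.

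Glucocorticoids, which in mice rise during stress and systemic inflammation, bind the glucocorticoid receptor encoded by *Nr3c1*. The bound receptor moves to the nucleus, where it switches on target genes such as *Fkbp5*, *Tsc22d3*, *Sgk1*, *Zbtb16*, *Klf9*, *Cdkn1a* and *Pdk4*, and represses many inflammatory genes. The metallothioneins *Mt1* and *Mt2* encode small cysteine-rich proteins that bind zinc and copper, and respond both to metals, through the factor MTF1, and to glucocorticoids. Most of these genes also answer to other signals, so none of them is a measure of hormone alone.

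*Mt1* and *Mt2* are neighbors on chromosome 8 (mm10), *Mt2* at 94172664 to 94173568 and *Mt1* at 94179082 to 94180327, both on the plus strand and 5513 bases apart. Their promoter windows are shown because letter patterns for both inputs can be looked for close to the gene start, and because neither gene was called in any of the 4 treatment comparisons. Each window runs from 250 bases before to 30 bases after the gene start in RefSeq (GRCm38.p6, plus strand, chr8:94178839-94179118 for *Mt1* and chr8:94172368-94172647 for *Mt2*). The RefSeq starts differ from the starts given above, and the *Mt2* window ends before the *Mt2* start given there. The capitals mark the core of the metal response element, searched as TGCACNC or TGCGCNC on both strands.
Mt1: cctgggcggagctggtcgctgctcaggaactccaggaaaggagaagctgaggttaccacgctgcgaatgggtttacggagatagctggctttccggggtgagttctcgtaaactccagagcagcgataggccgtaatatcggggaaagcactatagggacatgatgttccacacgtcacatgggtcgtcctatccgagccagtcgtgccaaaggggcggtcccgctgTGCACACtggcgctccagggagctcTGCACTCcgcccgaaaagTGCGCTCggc
Mt2: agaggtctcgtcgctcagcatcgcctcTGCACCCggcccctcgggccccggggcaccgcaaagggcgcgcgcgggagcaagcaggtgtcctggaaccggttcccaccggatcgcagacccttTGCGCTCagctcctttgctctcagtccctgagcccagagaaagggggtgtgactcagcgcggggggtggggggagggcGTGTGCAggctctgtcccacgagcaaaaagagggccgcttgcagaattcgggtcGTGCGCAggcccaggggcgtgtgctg

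The *Mt1* window held this core at 3 places and the *Mt2* window at 4 places. Of 32851 promoter windows of the same length in the RefSeq table, 24.1% held it at least once and 1.73% at 3 or more places. The paired half-sites of the glucocorticoid receptor, searched as ACANNNTGT on both strands, occurred once in the *Mt1* window and in 6.42% of all windows. Among the 14 windows of *Fkbp5*, *Tsc22d3*, *Sgk1*, *Klf9*, *Cdkn1a* and *Pdk4*, that pattern occurred in 2 of the 6 *Sgk1* windows, and it overlapped no metal response core in the printed windows. The metal response core occurred in 1 of those 14 windows, also of *Sgk1*. A match describes letters in a window and does not show binding. Sequence outside the windows was not searched, so a missing match does not show that a gene lacks such a site.

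Library totals were 11391564 to 14216005 counts in adult microglia, 8199863 to 10368578 in brain tissue and 5973364 to 9165485 in slice microglia. Levels below are CPM, a gene's count relative to its library's total, with trimmed-mean scaling within each of the 3 tables, which were prepared separately, so levels set across tables are side by side and untested. The 5 microglia markers (*P2ry12*, *Tmem119*, *Cx3cr1*, *Csf1r*, *Sall1*) were detected in every group, with a summed level of 22986 to 38327 CPM in adult microglia, 4833 to 12097 CPM in slice microglia and 155 to 264 CPM in brain tissue. In adult microglia the 6 neuron markers summed to at most 1.80 CPM, and in slice microglia to at most 11.3 CPM. Among the 4 brain LPS libraries, library 3 stood apart. It was the highest of them in 32.2% and the lowest in 32.2% of all 15083 genes tested. It also had the lowest summed microglia markers (155 CPM against 239 to 264 CPM in the other 3). Brain results are therefore also given without it. Among the adult microglia LPS libraries, library 2 was the highest in 29.4% and the lowest in 32.1% of 12987 genes tested.

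The control samples already set the genes apart by source. *Cdkn1a*, which encodes the cell cycle inhibitor p21, averaged 9.42 ± 2.17 CPM (SD, n = 4) in PBS microglia, 14.00 ± 1.74 CPM (n = 4) in untreated brain and 395 ± 43.1 CPM (n = 9) in slice microglia in medium. *Sgk1*, encoding a serine/threonine kinase that regulates ion transport and cell survival, averaged 661 ± 94.95, 60.5 ± 11.7 and 1516 ± 189 CPM in the same order. *Mt1* averaged 46.1 ± 2.80 CPM in PBS microglia, 117 ± 7.69 CPM in brain and 314 ± 26.4 CPM in slice microglia. *Mt2* averaged 0.867 ± 0.304, 70.8 ± 4.90 and 21.2 ± 2.17 CPM. No 2 of the 3 ranges overlapped for any of these genes except *Cdkn1a* between PBS microglia and brain, where they ran from 6.75 to 12.04 CPM and from 11.7 to 15.9 CPM.

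*Nr3c1* was highest in PBS microglia at 251 ± 9.56 CPM, with 118 ± 3.20 CPM in brain and 93.4 ± 17.1 CPM in slice medium, the ranges of the last pair touching at 113.9 to 121.1 CPM and 75.2 to 118.9 CPM. *Fkbp5*, which encodes a co-chaperone that lowers the hormone affinity of the receptor, averaged 136 ± 28.97 CPM in PBS microglia, 122 ± 40.4 CPM in slice medium and 30.7 ± 3.72 CPM in brain, and the ranges of both microglia sources overlapped. *Tsc22d3*, encoding the anti-inflammatory leucine zipper protein GILZ, averaged 137 ± 48.0, 121 ± 17.5 and 66.6 ± 10.9 CPM in that order, again with overlapping microglia ranges.

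*Zbtb16*, *Klf9* and *Pdk4* were mainly brain tissue genes in these tables. *Zbtb16*, a zinc finger transcriptional repressor gene, had 11 counts over 4 PBS microglia libraries and 8 counts over 9 slice medium libraries, against 43.7 ± 4.69 CPM in untreated brain. *Klf9*, a zinc finger transcription factor gene induced by glucocorticoid and thyroid hormones, averaged 1.40 ± 0.475 CPM in PBS microglia, 3.79 ± 2.38 CPM in slice medium and 146 ± 9.38 CPM in brain. *Pdk4*, encoding a kinase that inhibits pyruvate dehydrogenase, had 1 count in 4 PBS microglia libraries and 0 counts in 4 LPS microglia libraries, which allows up to 0.0574 CPM over those libraries (3 counts, counting error only). Its average was 9.59 ± 0.998 CPM in untreated brain. The plot of levels in every library shows all 10 genes side by side.

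**Figure D1:**
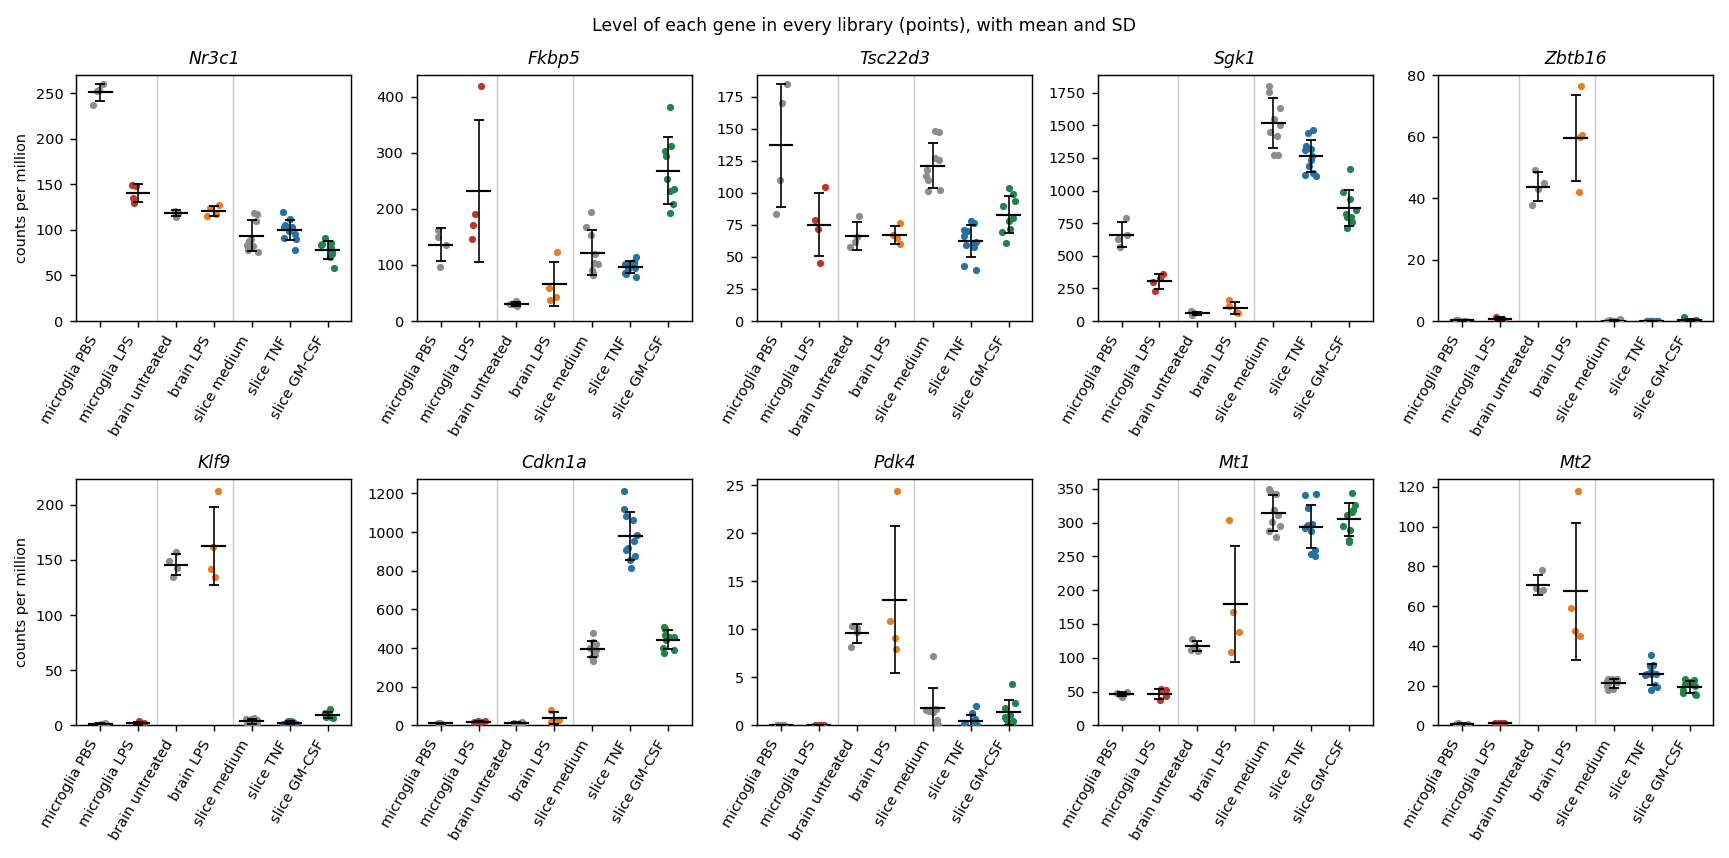
Level of each of the 10 genes, in CPM on linear axes that start at 0, for the 7 groups of libraries; each point is a library, the horizontal line the mean and the bar the SD. *Zbtb16*, *Klf9* and *Pdk4* sit near 0 in microglia, *Cdkn1a* and *Sgk1* are highest in slices, and 1 brain LPS library lies above the other 3 in 9 of the 10 panels.

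After LPS in the animal, adult microglia held less *Nr3c1* and *Sgk1* and more *Cdkn1a*, and the metallothioneins did not pass the test. A gene was called when edgeR's quasi-likelihood test gave a Benjamini-Hochberg adjusted p under 0.05 over all genes tested and the fold change exceeded 1.5. By this rule 3 of the 8 members tested were called, beside 27.4% of all 12987 genes (14.4% higher and 13.0% lower). The share of members called is near that background, and the median log2 fold change over the 8 was 0.23 against 0.01 over all genes.

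*Nr3c1* measured 254, 260, 237 and 252 CPM in the PBS libraries and 135, 149, 129 and 148 CPM in the LPS libraries. The groups did not overlap, and the log2 fold change was -0.84 ± 0.068 (SE, adjusted p = 2.14e-06), 1.79-fold lower. *Sgk1* measured 630, 791, 565 and 659 CPM after PBS and 361, 326, 229 and 302 CPM after LPS, again without overlap. Its log2 fold change was -1.12 ± 0.14 (adjusted p = 9.79e-05), 2.17-fold lower, although *Sgk1* is known as a gene that glucocorticoids induce. *Cdkn1a* measured 6.75, 9.63, 9.26 and 12.04 CPM after PBS and 20.6, 17.0, 17.4 and 19.9 CPM after LPS. All LPS libraries lay above all PBS libraries, with a log2 fold change of 0.99 ± 0.16 (adjusted p = 3.12e-04), 1.99-fold higher.

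*Fkbp5*, a widely used transcript readout of the receptor, measured 95.8, 136, 162 and 150 CPM after PBS and 172, 147, 420 and 190 CPM after LPS. LPS libraries 1, 3 and 4 lay above every PBS library, LPS library 3 was the highest of either group, and LPS library 2 fell within the PBS range. The log2 fold change of 0.77 ± 0.37 (adjusted p = 0.119) did not pass, and without LPS library 3 it was 0.32 ± 0.17 (adjusted p = 0.160). *Tsc22d3* measured 83.6, 185, 110 and 170 CPM after PBS and 71.8, 79.2, 105 and 45.04 CPM after LPS. LPS libraries 1, 2 and 4 lay below all PBS libraries, and the log2 fold change was -0.87 ± 0.34 (adjusted p = 0.066). For *Tsc22d3* the call depended on the setting: it passed with limma-voom (adjusted p = 0.0248), with DESeq2 (adjusted p = 0.0226), without LPS library 3 (-1.07, adjusted p = 0.0411) and without PBS library 1 (-1.04, adjusted p = 0.0269).

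No remaining member of adult microglia was called, and all but *Mt1* had few counts. The 95% intervals of the log2 fold change were wide for *Mt2* (-0.29 to 1.19) and *Klf9* (-0.45 to 1.51). *Mt1* measured 45.7, 47.5, 49.0 and 42.5 CPM after PBS and 43.5, 53.4, 51.6 and 37.5 CPM after LPS, with a log2 fold change of 0.01 and a 95% interval of -0.23 to 0.25. *Mt2* lay at 0.574 to 1.29 CPM after PBS (47 counts in all) and 1.02 to 1.38 CPM after LPS (62 counts), with a log2 fold change of 0.45 ± 0.34 (adjusted p = 0.283). *Klf9* lay at 0.865 to 2.01 CPM after PBS and 0.771 to 3.84 CPM after LPS, with a log2 fold change of 0.53 ± 0.45 (adjusted p = 0.346) that rested on LPS library 3, without which it was 0.02 (adjusted p = 0.972). *Zbtb16* and *Pdk4* had too few counts for the filter and were not tested in adult microglia.

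Other marker sums moved with LPS in the sorted adult cells. The 5 microglia markers summed to 34447 to 38327 CPM after PBS and to 22986 to 26035 CPM after LPS. The 6 neutrophil markers (*S100a8*, *S100a9*, *Ngp*, *Camp*, *Mpo*, *Ly6g*) summed to 32.6 to 69.8 CPM after PBS and to 1.61 to 7.66 CPM after LPS, where *Mpo* and *Ly6g* had no count. Astrocyte markers summed to 255 to 281 CPM after PBS and 147 to 182 CPM after LPS, oligodendrocyte markers to 178 to 202 CPM and 136 to 156 CPM, and endothelial markers to 28.9 to 36.3 CPM and 10.2 to 13.7 CPM, with *Cldn5* and *Tek* at 0 in both groups. Pericyte and mural markers summed to 0.144 to 0.718 CPM and 1.97 to 4.01 CPM. These sums do not speak for each marker. Of the 6 astrocyte markers 3 had enough counts to be tested, with 1 called lower and a median log2 fold change of 0.30. Only 1 endothelial marker (*Pecam1*, called lower) and 1 pericyte and mural marker (*Anpep*, called higher) could be tested. The part of these sums in the changes of *Nr3c1*, *Sgk1* and *Cdkn1a* was not tested.

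In brain tissue the same LPS dose gave no call among the 10 members, while 3.18% of all 15083 genes were called (2.63% higher and 0.550% lower). At an unadjusted p under 0.05, 3 members passed with edgeR (*Fkbp5*, *Zbtb16* and *Cdkn1a*), and 4 passed with limma-voom and 4 with DESeq2, neither of which called any. The share of all genes at that unadjusted p is not given here, so the 3 counts have no background. With DESeq2 *Zbtb16* passed the adjusted p (0.0210) but at a log2 fold change of 0.44 stayed under the fold limit. In bulk tissue, fewer cells of a type and less RNA per cell cannot be told apart. The median log2 fold change over the 10 members was 0.44, beside 0.00 over all genes. Marker sums moved with LPS too, with oligodendrocyte markers at 6112 to 6688 CPM in untreated brain and 4666 to 5530 CPM after LPS, and astrocyte markers at 1728 to 1875.5 CPM and 1945 to 2232 CPM. Of the 6 astrocyte markers 1 was called higher, with a median log2 fold change of 0.05. Border macrophage and monocyte markers stood at 4.12 to 5.05 CPM and 7.08 to 8.10 CPM, and neutrophil markers at 0.704 to 1.14 CPM and 3.06 to 7.08 CPM. Only 1 neutrophil marker could be tested, and it was called higher. Endothelial markers summed to 204 to 223 CPM and 214 to 281 CPM, with 2 of 6 called higher. Of the 5 microglia markers 1 was called lower, and no neuron or pericyte and mural marker was called. The part of these sums in the values of the members was not tested.

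*Fkbp5* measured 30.2, 36.0, 29.7 and 27.2 CPM in untreated brain and 36.6, 43.5, 122 and 58.4 CPM after LPS. The groups did not overlap, but the LPS libraries spread so widely that the log2 fold change of 1.07 ± 0.43 had an adjusted p of 0.196. *Cdkn1a* measured 11.7, 14.3, 14.2 and 15.9 CPM in untreated brain and 20.8, 18.5, 81.0 and 28.0 CPM after LPS, again without overlap, with a log2 fold change of 1.39 ± 0.57 (adjusted p = 0.205). For both genes LPS library 3 was the highest and LPS library 4 the next. Without LPS library 3, *Cdkn1a* was the 1 member called, at 0.68 ± 0.14 (adjusted p = 5.32e-03), beside 3.56% of all genes, and *Fkbp5* stood at 0.58 ± 0.19 (adjusted p = 0.117).

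*Sgk1* measured 46.9, 75.3, 58.1 and 61.7 CPM in untreated brain and 59.0, 72.4, 157 and 116 CPM after LPS, with a log2 fold change of 0.74 ± 0.35 (adjusted p = 0.272). LPS libraries 1 and 2 lay within the untreated range, and LPS libraries 3 and 4 above it. *Zbtb16* measured 43.0, 44.8, 49.2 and 37.8 CPM in untreated brain and 42.0, 59.8, 76.4 and 60.4 CPM after LPS, 3 of the 4 above every untreated library, with a log2 fold change of 0.44 ± 0.18 (adjusted p = 0.189). *Klf9* ran from 135 to 157 CPM in untreated brain and reached 134, 162, 213 and 142 CPM after LPS, with a log2 fold change of 0.16 ± 0.15 (adjusted p = 0.610). *Pdk4* ran from 8.14 to 10.3 CPM and reached 7.91, 9.08, 24.4 and 10.9 CPM, a log2 fold change of 0.44 ± 0.38 (adjusted p = 0.561). For all 4 genes library 3 was the highest. Without it the log2 fold changes were 0.44 for *Sgk1* (adjusted p = 0.436), 0.30 for *Zbtb16* (adjusted p = 0.297), -0.00 for *Klf9* (adjusted p = 0.999) and -0.05 for *Pdk4* (adjusted p = 0.880).

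Both metallothioneins of brain tissue were highest in library 3. *Mt1* measured 111, 128, 118 and 112 CPM in untreated brain and 109, 138, 303 and 168 CPM after LPS, a log2 fold change of 0.61 ± 0.33 (adjusted p = 0.332). *Mt2* measured 67.6, 78.0, 69.2 and 68.1 CPM in untreated brain and 47.3, 45.2, 118 and 59.3 CPM after LPS, a log2 fold change of -0.08 ± 0.33 (adjusted p = 0.930). LPS libraries 1, 2 and 4 thus lay below every untreated library in *Mt2*, and library 3 above all of them. Without library 3 the log2 fold change of *Mt2* was -0.49 ± 0.090 (adjusted p = 4.27e-03, under the fold limit) and that of *Mt1* was 0.24 ± 0.16 (adjusted p = 0.437).

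*Nr3c1* and *Tsc22d3* gave the smallest log2 fold changes in brain tissue. *Nr3c1* measured 121, 114, 120 and 119 CPM in untreated brain and 124, 127, 115 and 117 CPM after LPS, with a log2 fold change of 0.03 and a 95% interval of -0.07 to 0.13. *Tsc22d3* ran from 57.5 to 82.3 CPM and from 60.03 to 76.4 CPM, with a log2 fold change of 0.00 and a 95% interval of -0.26 to 0.27. Without library 3 the values were 0.05 for *Nr3c1* (adjusted p = 0.491) and -0.07 for *Tsc22d3* (adjusted p = 0.820).

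Library 3 was the highest of the 4 brain LPS libraries in 9 of the 10 members and the lowest in the other one, *Nr3c1*. Library 1 was the lowest in 7 of the 10, beside 24.3% of all genes. Library 3 was also highest in 14 of the 19 tested genes of a list of 20 other glucocorticoid-induced genes and in 7 of 9 p53 targets. It was highest in 3 of 12 receptor chaperones and cofactors and in 2 of 15 zinc transport and metal response genes. Over all genes tested it was highest in 32.2%. It also had the lowest summed oligodendrocyte markers (4666 CPM against 5210 to 5530 CPM in the other LPS libraries) and pericyte and mural markers (151 CPM against 206 to 211 CPM). Whether tissue makeup, handling or the animal set these values was not tested. Among the adult microglia LPS libraries, the one numbered 3 was highest in *Fkbp5*, *Tsc22d3*, *Klf9* and *Mt2* and lowest in *Nr3c1* and *Sgk1*, but the labels do not say that equal numbers mark the same mouse.

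**Figure D2:**
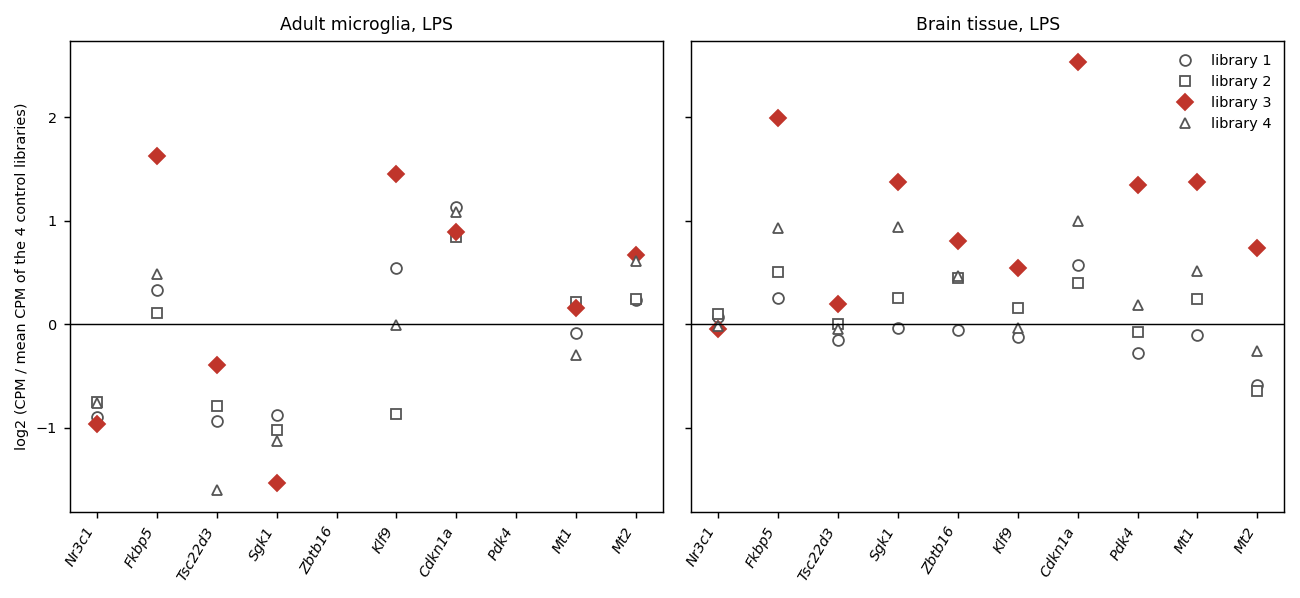
Log2 ratio of each LPS library to the mean of its 4 control libraries, for adult microglia (left, 8 genes with enough counts) and brain tissue (right, 10 genes); filled diamonds are library 3. In brain tissue library 3 lies above the other LPS libraries in every gene but *Nr3c1*, while in microglia all 4 libraries lie below 0 for *Nr3c1*, *Tsc22d3* and *Sgk1* and above 0 for *Cdkn1a* and *Fkbp5*.

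The LPS responses of microglia and brain tissue differed for 2 of the 10 members in a joint fit of the 16 libraries, beside 19.7% of all genes. *Zbtb16* and *Pdk4*, under the filter in adult microglia, entered this fit through their brain counts. The fit could thus compare the LPS responses of the 8 members tested in adult microglia. For *Nr3c1* the microglia effect minus the brain effect was -0.88 ± 0.086 on the log2 scale (adjusted p = 2.87e-07). For *Sgk1* it was -1.86 ± 0.37 (adjusted p = 1.54e-03), and -1.58 (adjusted p = 1.57e-03) without brain LPS library 3. *Sgk1* fell in sorted microglia, while in brain tissue its log2 fold change of 0.74 did not pass the test. Leaving out 1 library added a call for *Mt2* (0.92, adjusted p = 0.0182, without brain LPS library 3) and for *Tsc22d3* (-1.09, adjusted p = 0.0402, without adult LPS library 3, and -1.06, adjusted p = 0.0288, without PBS library 1). For *Fkbp5* the difference was -0.31 with a 95% interval of -1.54 to 0.92, and for *Cdkn1a* -0.41 with an interval of -1.62 to 0.80. Tissue, library kit and injection of the controls all differ between these 2 tables and cannot be told apart.

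In slice microglia TNF lowered *Tsc22d3* and raised *Cdkn1a*, while the metallothioneins and *Nr3c1* did not pass the test. Of 9 members tested, 3 were called, beside 20.8% of all 11313 genes (9.10% higher and 11.7% lower), with a median log2 fold change of -0.26 over the 9 and -0.03 over all genes. *Tsc22d3* ran from 101 to 148 CPM in medium (median 118, n = 9) and from 39.8 to 78.3 CPM after TNF (median 61.5, n = 11). The groups did not overlap, and the log2 fold change was -0.96 ± 0.11 (adjusted p = 6.17e-09). *Cdkn1a* ran from 333 to 476 CPM in medium (median 391.6) and from 814 to 1215 CPM after TNF (median 953), with a log2 fold change of 1.31 ± 0.076 (adjusted p = 2.53e-16). Every TNF library lay above every medium library. Within codes 1A and 1B the log2 fold changes of *Tsc22d3* and *Cdkn1a* were -0.92 and 1.38, and within codes 2A and 2B they were -1.02 and 1.21, all called.

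*Pdk4* was the third call, on few counts. It had 120 counts over the 9 medium libraries, 53 of them in library 9, and 35 counts over the 11 TNF libraries, with a log2 fold change of -1.88 ± 0.72 (adjusted p = 0.0321). The groups overlapped, and the call was lost with limma-voom (adjusted p = 0.0730), without the low-count filter (adjusted p = 0.0603) and with the title code as a term (adjusted p = 0.0519).

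*Fkbp5* and *Sgk1* passed the adjusted p after TNF but not the fold limit. *Sgk1* ran from 1268 to 1801 CPM in medium (median 1498) and from 1113 to 1462 CPM after TNF (median 1264), with a log2 fold change of -0.26 ± 0.078 (adjusted p = 6.92e-03). *Fkbp5* ran from 81.8 to 195 CPM in medium (median 103) and from 79.0 to 114 CPM after TNF (median 102), with a log2 fold change of -0.34 ± 0.13 (adjusted p = 0.0413). The *Fkbp5* value differed by title code: it was -0.68 (adjusted p = 1.80e-04) within codes 1A and 1B, where medium libraries ran from 119 to 195 CPM, and 0.02 (adjusted p = 0.916) within codes 2A and 2B, where they ran from 81.8 to 103 CPM. After TNF both sets of codes lay close together, at 83.2 to 114 CPM and 79.0 to 105 CPM.

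GM-CSF raised *Fkbp5* and *Klf9* and lowered *Sgk1*, 3 of the 9 members tested, beside 10.8% of all genes (4.84% higher and 5.96% lower), with a median log2 fold change of -0.14 over the 9 and -0.04 over all genes. The 5 microglia markers summed to 8674 to 12097 CPM in medium, 4833 to 6633 CPM after TNF and 5961 to 7439 CPM after GM-CSF, without overlap between medium and either cytokine. Border macrophage and monocyte markers had medians of 128 CPM in medium, 53.7 CPM after TNF and 163 CPM after GM-CSF, with ranges of 91.4 to 215 CPM, 35.6 to 108 CPM and 137 to 299.8 CPM. Pericyte and mural markers had medians of 10.1, 19.03 and 11.1 CPM and astrocyte markers of 78.2, 56.3 and 57.5 CPM in the same order. Of the 6 pericyte and mural markers 1 had enough counts in slices to be tested. The part of these sums in the slice results was not tested. *Fkbp5* ran from 192 to 382 CPM after GM-CSF (median 253, n = 9), and 8 of the 9 libraries lay above every medium library. The log2 fold change was 1.13 ± 0.14 (adjusted p = 1.04e-07), and it was 1.03 within codes 1A and 1B (294.7 to 382 CPM against 119 to 195 CPM) and 1.29 within codes 2A and 2B (192 to 253 CPM against 81.8 to 103 CPM). Within each set of codes the groups did not overlap.

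*Sgk1* ran from 715 to 1162 CPM after GM-CSF (median 819), below every medium library, with a log2 fold change of -0.80 ± 0.082 (adjusted p = 1.78e-09). Within codes it was -0.81 and -0.78, both called. *Klf9* ran from 6.72 to 15.0 CPM after GM-CSF (median 8.87, 638 counts) and from 0 to 6.31 CPM in medium (median 4.55, 258 counts), without overlap, with a log2 fold change of 1.27 ± 0.43 (adjusted p = 0.0243). The *Klf9* call was lost within codes 1A and 1B alone (1.38, adjusted p = 0.0638) and within codes 2A and 2B alone (1.21, adjusted p = 0.292). *Fkbp5* and *Sgk1*, both known targets of the receptor, thus changed in opposite directions under the same cytokine.

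*Tsc22d3* ran from 61.3 to 104 CPM after GM-CSF (median 80.5), with a log2 fold change of -0.55 ± 0.12 (adjusted p = 4.24e-04), and *Nr3c1* from 58.4 to 91.2 CPM (median 80.4) against 75.2 to 119 CPM in medium (median 87.3), with -0.26 ± 0.096 (adjusted p = 0.0428). Both stayed under the fold limit. *Cdkn1a* ran from 375 to 511 CPM after GM-CSF (median 455), with a log2 fold change of 0.17 ± 0.077 (adjusted p = 0.118), and *Pdk4* had 98 counts over the 9 libraries, with -0.39 ± 0.70 (adjusted p = 0.742). *Zbtb16* had 0 counts in all 11 TNF libraries, which allows up to 0.0373 CPM over the group, and 14 counts in the GM-CSF libraries, 11 of them in library 7.

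*Mt1* and *Mt2* were not called after either cytokine. *Mt1* ran from 278 to 349 CPM in medium (median 312), from 250.1 to 342 CPM after TNF (median 295) and from 271 to 344 CPM after GM-CSF (median 311). The 95% intervals of its log2 fold changes were -0.23 to 0.03 for TNF and -0.18 to 0.09 for GM-CSF, both inside the 1.5-fold limit. *Mt2* ran from 17.9 to 23.4 CPM in medium (median 22.0), from 17.7 to 35.3 CPM after TNF (median 25.7) and from 15.4 to 23.5 CPM after GM-CSF (median 19.7). Its log2 fold changes were 0.27 ± 0.12 for TNF (adjusted p = 0.0749) and -0.14 ± 0.13 for GM-CSF (adjusted p = 0.490), with intervals of 0.02 to 0.52 and -0.39 to 0.12. *Klf9* and *Nr3c1* did not pass after TNF, at -0.69 ± 0.42 (adjusted p = 0.197) and 0.10 ± 0.092 (adjusted p = 0.429).

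**Figure D3:**
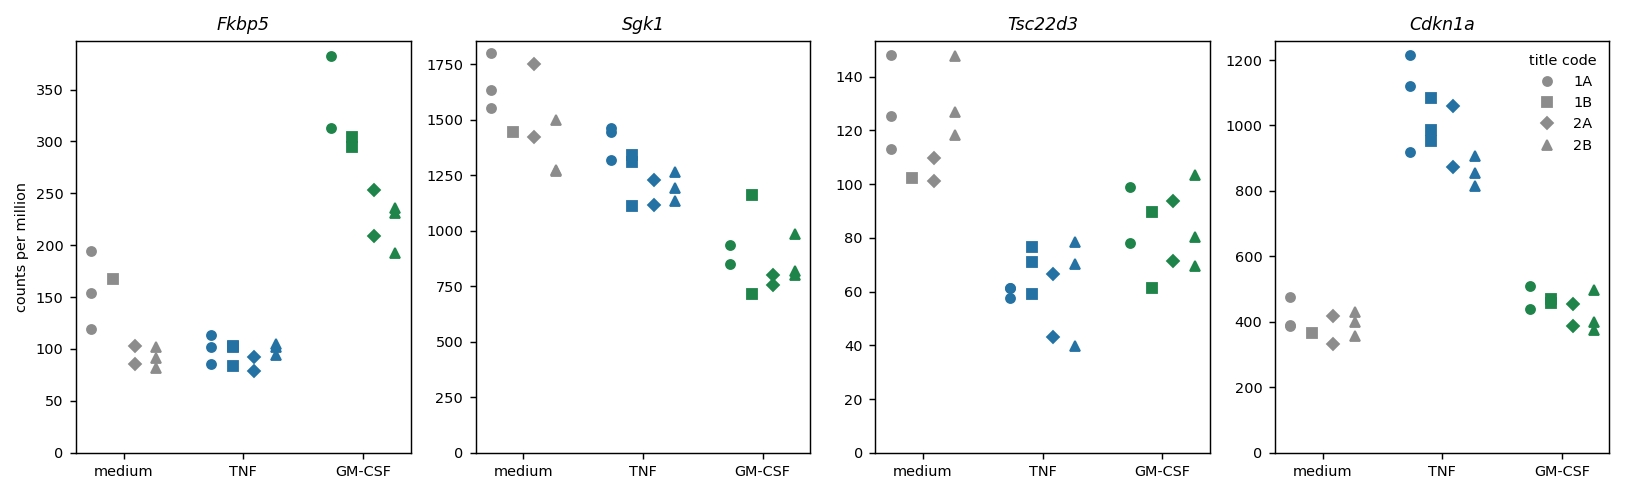
CPM of *Fkbp5*, *Sgk1*, *Tsc22d3* and *Cdkn1a* in the 29 slice microglia libraries by treatment, on linear axes from 0; the marker shape gives the title code. *Fkbp5* in medium is higher for codes 1A and 1B than for 2A and 2B, and GM-CSF libraries lie above the medium libraries of their own codes.

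Tested directly, TNF and GM-CSF differed for *Fkbp5*, *Klf9* and *Cdkn1a*, 3 of 9 members, beside 16.2% of all genes. TNF minus GM-CSF was -1.48 ± 0.13 for *Fkbp5* (adjusted p = 3.27e-11), -1.96 ± 0.41 for *Klf9* (adjusted p = 2.60e-04) and 1.14 ± 0.075 for *Cdkn1a* (adjusted p = 9.47e-15). None of the 3 overlapped between both cytokines. Within codes 2A and 2B alone the *Klf9* call was lost (-1.83, adjusted p = 0.0747), and within codes 1A and 1B alone *Mt2* passed the fold limit (0.59, adjusted p = 0.0225). *Sgk1* (0.54 ± 0.078, adjusted p = 8.08e-07), *Mt2* (0.41 ± 0.12, adjusted p = 9.34e-03), *Nr3c1* (0.36 ± 0.092, adjusted p = 2.47e-03) and *Tsc22d3* (-0.41 ± 0.11, adjusted p = 3.61e-03) passed the adjusted p under the fold limit. The doses differed in mass and the 2 cytokines have different receptors, so the values compare these treatments and not potencies.

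Microglia after LPS in the animal were then set against slice microglia after cytokines, in a joint fit of 8 adult and 29 slice libraries. The 9 members of that fit include *Pdk4*, which was under the filter in adult microglia and entered through its slice counts. LPS minus TNF was called for 3 of 9 members, beside 13.7% of all genes. It was -0.98 ± 0.15 for *Nr3c1* (adjusted p = 6.12e-06), -0.91 ± 0.16 for *Sgk1* (adjusted p = 2.93e-05) and 1.06 ± 0.30 for *Fkbp5* (adjusted p = 8.40e-03). The *Fkbp5* difference rested on adult LPS library 3, without which it was 0.61 (adjusted p = 0.124). For *Tsc22d3*, the difference was 0.04 with a 95% interval of -0.47 to 0.56, and for *Cdkn1a* it was -0.37 with an interval of -0.70 to -0.04 (adjusted p = 0.126).

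LPS minus GM-CSF was called for 2 of 9 members, beside 9.61% of all genes, with -0.62 ± 0.16 for *Nr3c1* (adjusted p = 4.95e-03) and 0.79 ± 0.17 for *Cdkn1a* (adjusted p = 6.44e-04). With limma-voom the *Cdkn1a* call was lost (adjusted p = 0.05005). Without adult LPS library 3 the *Nr3c1* difference was -0.57 (adjusted p = 0.0186), under the fold limit, and the *Fkbp5* difference moved from -0.41 (adjusted p = 0.489) to -0.86 (adjusted p = 0.0323), past it. For *Sgk1*, which fell under both treatments, the difference was -0.35 with an interval of -0.68 to -0.03 (adjusted p = 0.164). For *Mt1* the differences were 0.06 against TNF and 0.02 against GM-CSF, with intervals of -0.19 to 0.31 and -0.24 to 0.27. Age, supplier of the mice, culture, route, dose and sequencing run all change between these tables and cannot be told apart. The adult mice were females, and the sex of the pups is not given. All 3 slice contrasts share libraries, and both LPS differences share the 8 adult microglia libraries.

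**Figure D4:**
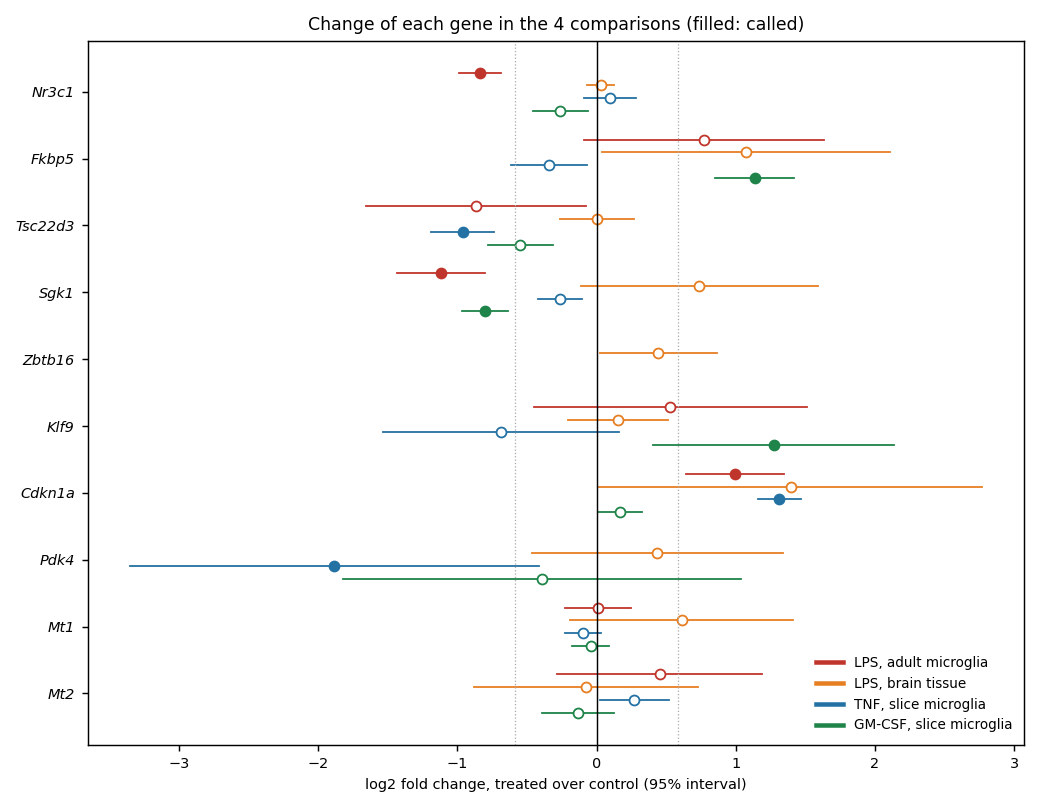
Log2 fold change of treated over control with its 95% interval for each gene in the 4 comparisons; filled circles are called, open circles are not, and dotted lines mark the 1.5-fold limit. *Nr3c1* is called in LPS-treated adult microglia and in no other of the 4 comparisons, *Sgk1* is lower in LPS microglia and with GM-CSF, and *Mt1* intervals in the microglia comparisons lie within the dotted lines.

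Of 13 close relatives of the members (other genes of the same families), 12 were tested after LPS in adult microglia, where 1 was called higher and 6 lower, with a median log2 fold change of -0.60 beside 0.01 over all genes, of which 14.4% were called higher and 13.0% lower. *Cdkn1c*, another cyclin-dependent kinase inhibitor gene, fell by 2.45 ± 0.22 on the log2 scale (adjusted p = 3.54e-06), from 12.8 ± 1.21 to 2.34 ± 0.743 CPM, while *Cdkn1a* rose. *Nr3c2*, the mineralocorticoid receptor gene, whose product binds the same hormones, changed by -1.53 ± 0.20 (adjusted p = 7.17e-05). *Pdk1* changed by -0.81 ± 0.083 (adjusted p = 1.00e-05) and *Pdk3* by 0.62 ± 0.11 (adjusted p = 4.73e-04). No relative was called among 13 in brain tissue, where 3.18% of all genes were called. TNF gave 1 higher (*Pdk3*) and 1 lower (*Pdk2*) of 11, beside 9.10% and 11.7% of all genes, and GM-CSF gave 1 higher of 11, beside 4.84%. That gene was *Fkbp4*, a co-chaperone related to *Fkbp5*, at 0.78 ± 0.079 (adjusted p = 1.47e-09).

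Of the 20 other genes known to be induced by glucocorticoids, 5 of 14 tested were called higher and 1 lower after LPS in adult microglia, and 6 of 19 higher and 0 lower in brain tissue. Over all genes 14.4% were called higher and 13.0% lower in adult microglia, and 2.63% higher and 0.550% lower in brain tissue. The median log2 fold changes of the list were 0.45 and 0.61. In adult microglia *Cebpd*, a transcription factor gene, rose by 0.72 ± 0.10 (adjusted p = 9.69e-05) and *Txnip*, encoding an inhibitor of thioredoxin, changed by -1.14 ± 0.091 (adjusted p = 1.96e-06). In brain tissue *Sult1a1*, a sulfotransferase gene, rose by 1.51 ± 0.22 (adjusted p = 2.33e-03), from 7.36 ± 1.503 to 21.0 ± 6.07 CPM, and *Fam107a*, an actin regulator gene, by 0.80 ± 0.10 (adjusted p = 2.63e-03). Without brain LPS library 3, *Cebpd*, *Sult1a1*, *Angptl4*, *Fam107a* and *Lcn2*, 5 of these 19, were still called higher, beside 3.56% of all genes called in either direction. Several of these genes, *Lcn2*, *Il1r2* and *Nfkbia* among them, are also induced by inflammatory signals without the hormone.

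In slices this list gave 2 of 17 higher and 3 lower after TNF, and 1 of 17 higher and 2 lower after GM-CSF, with medians of -0.19 and -0.27. The shares of all genes were 9.10% higher and 11.7% lower after TNF, and 4.84% and 5.96% after GM-CSF. *Nfkbia*, encoding the NF-κB inhibitor IκBα, rose by 2.01 ± 0.067 after TNF (adjusted p = 2.13e-22). *Sult1a1* changed by -1.45 ± 0.20 after TNF (adjusted p = 2.89e-07) and by -1.02 ± 0.21 after GM-CSF (adjusted p = 3.17e-04). *Cebpd* rose by 0.82 ± 0.10 after GM-CSF (adjusted p = 1.87e-07).

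The receptor's chaperones, which hold it in its hormone-binding state, and its cofactors were called higher for 4 of 10 and lower for 0 of 10 after LPS in adult microglia (median log2 fold change 0.42), beside 14.4% and 13.0% of all genes. These were *Hsp90ab1* (1.23 ± 0.11), *Hsp90aa1* (1.203 ± 0.11), *Hspa8* (1.51 ± 0.15) and *Stip1* (1.10 ± 0.12), general heat shock chaperone genes that serve many other proteins. In brain tissue 0 of 12 were called, beside 3.18% of all genes. After TNF 3 of 11 were higher and after GM-CSF 2 of 11 were higher (*Fkbp4* and *Stip1*), with none lower. Over all genes 9.10% were called higher and 11.7% lower after TNF, and 4.84% and 5.96% after GM-CSF.

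Zinc transport and metal response genes were called higher for 8 of 13 and lower for 0 of 13 in LPS microglia (median log2 fold change 0.66), beside 14.4% and 13.0% of all genes. In the same libraries *Mt1* gave a log2 fold change of 0.01. *Slc39a14*, a zinc importer gene of the acute phase, rose from 34.6 ± 1.48 to 421 ± 126 CPM (log2 fold change 3.61 ± 0.22, adjusted p = 4.40e-06). *Slc39a1*, another zinc importer gene, rose by 1.15 ± 0.14 (adjusted p = 3.39e-05), and *Slc30a7* and *Slc30a6*, which carry zinc into the secretory pathway, by 0.83 ± 0.089 and 0.72 ± 0.086. In brain tissue 0 of 15 were called, beside 3.18% of all genes, and after GM-CSF 0 of 14, beside 10.8%. TNF gave 2 of 14 higher and 1 lower, beside 9.10% and 11.7% of all genes, with *Slc39a14* at 1.13 ± 0.12 (adjusted p = 7.29e-10) and *Slc39a8* at -1.70 ± 0.20 (adjusted p = 6.03e-09).

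As *Cdkn1a* is also a target of p53, 12 other p53 targets were set beside it. After TNF 4 of 11 were higher and 1 lower, beside 9.10% and 11.7% of all genes, with a median log2 fold change of 0.11, including *Mdm2* (0.86 ± 0.10, adjusted p = 1.95e-08) and *Bax* (0.64 ± 0.062, adjusted p = 1.35e-10). After LPS in adult microglia 1 of 10 was higher (*Aen*, 0.93 ± 0.14) and 3 were lower, with *Btg2* at -0.88 ± 0.078, beside 14.4% and 13.0% of all genes. GM-CSF gave 1 of 11 higher and 2 lower, beside 4.84% and 5.96% of all genes. Brain tissue gave 0 of 9 in either direction, beside 3.18% of all genes.

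Over all 45 libraries, with log2 CPM centered on each table's mean, the non-members whose pattern was most like *Fkbp5* among 9700 genes were *Sla* (Pearson r = 0.787), *Alox5* (r = 0.748) and *B4galnt1* (r = 0.746). Those most like *Mt1* were *Tspan4* (r = 0.665), *Arrdc2* (r = 0.629) and *Pnpla2* (r = 0.622). *Mt1* and *Mt2* had an r of 0.413, and *Fkbp5* and *Klf9* one of 0.597. These are descriptions over libraries that share groups, kits and tables, and say nothing of shared control.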

How the data were processed

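RNA-seq counts per gene from 3 tables were used. The slice table holds whole-number counts deposited by the authors, made per the labels with STAR 2.7.0a and featureCounts of Subread 1.6.4 on mm10. The adult microglia and brain tables hold expected counts, estimated per gene on mm10 and deposited by the authors. Which aligner and counter made them was not given in the sources used here. The strand setting is also not stated for any table. Expected counts were rounded (total change 0.00107% and 0.00113%). The brain table's 92 spike-in rows held 0 counts and were left out. Libraries of sorted microglia were amplified from little RNA with a SMART-Seq kit, and those of brain tissue were made with a TruSeq kit. Identifiers were named with GENCODE M21.

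Genes were filtered (filterByExpr, minimum count 10, minimum total 15), scaled (TMM) and tested with edgeR 4.0.16 (glmQLFit, glmQLFTest, robust) in R 4.3.3, with Benjamini-Hochberg adjustment over all genes tested. A call needed an adjusted p under 0.05 and a fold over 1.5. The slice fit held all 29 slice libraries, and differences between effects were contrasts in joint fits of the pooled tables. Zbtb16 and Pdk4 fell under the filter in adult microglia and Zbtb16 in slices, leaving 8, 10 and 9 members tested. Joint-fit values of Pdk4 are not given, since adult microglia held 1 count. The SE is the log2 fold change over the square root of F. The scripts were tested on simulated data. Alternatives were other scalings, filters and tools (limma 3.58.1, DESeq2 1.42.0), leaving out libraries, title codes and a replicate block. No replicate pair was identical. Per the study, the data on LPS in the animal came from independent mice and the slice libraries from 4 independent experiments. The labels do not tie slice libraries to experiments, so slice p-values measure the spread between libraries, some of which share an experiment. Replicate numbers were not used as pairs. Metallothionein genes are close paralogs, and antisense or overlapping genes (at Fkbp5, Klf9, Cdkn1a and Mt2) may share reads.

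The members and lists were chosen with earlier results of these data known. All members are named in every comparison; from the other lists counts are given, and values for at most 4 genes with the smallest p. A gene of the microglia marker list is not reported here, and the sums of that list leave it out.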

Additional observations from a re-analysis of the deposited data

Results flagged for a closer look

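Groups of 4 to 10 libraries were screened for a library far from the rest (Dixon's ratio, 95% level), and 7 of 59 gene and group combinations stood out. The nominal rate of 1 in 20 holds for normally distributed values and does not apply to sparse counts. Whether 7 of 59 is more than chance would flag was therefore not tested. In adult microglia this was *Fkbp5* at 420 CPM in LPS library 3, with the next library at 190 CPM. In brain tissue it was *Cdkn1a* at 81.0 CPM in LPS library 3, with the next at 28.0 CPM, and *Mt2* at 78.0 CPM in untreated library 2, with the next at 69.2 CPM. The other 4 rest on sparse counts: *Pdk4* at 0.0721 CPM in PBS microglia library 4 (1 count), at 7.25 CPM in slice medium library 9 and at 4.33 CPM in GM-CSF library 1, and *Zbtb16* at 1.45 CPM in GM-CSF library 7.

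Direct tests of a difference, between tissues after LPS or between treatments, were called for 10 gene and comparison combinations. LPS in microglia minus LPS in brain was -0.88 for *Nr3c1* and -1.86 for *Sgk1* (log2 scale). LPS in microglia minus TNF in slices was -0.98 for *Nr3c1*, 1.06 for *Fkbp5* and -0.91 for *Sgk1*, and minus GM-CSF in slices -0.62 for *Nr3c1* and 0.79 for *Cdkn1a*. TNF minus GM-CSF was -1.48 for *Fkbp5*, -1.96 for *Klf9* and 1.14 for *Cdkn1a*. In the order given here, 10, 9, 9 and 9 members were in the fits, and 19.7%, 13.7%, 9.61% and 16.2% of all genes were called. Without adult LPS library 3 the calls of *Fkbp5* against TNF and of *Nr3c1* against GM-CSF were lost. The call of *Cdkn1a* against GM-CSF was lost with limma-voom, and that of *Klf9* within codes 2A and 2B alone.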

How the results depend on the processing

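Over 121 recomputed counts of called members, 116 stayed within 1.5 times the reported count. Over 1100 recomputed log2 fold changes of single members, 1069 kept their status, 11 lost a call, 20 gained one and 0 reversed. A kept status includes values that were not called in either setting. Without the fold limit, called members rose to 5 after TNF, 5 after GM-CSF and 7 for TNF against GM-CSF, as the rule admits smaller changes. The share of all genes passing without that limit is not given here, so these counts have no background. With limma-voom, LPS minus GM-CSF gave 1 call (*Nr3c1*), the cause was not tested. Leaving out 1 library at a time gave 3 to 4 calls for LPS in adult microglia, 0 to 1 in brain tissue (1 without LPS library 3), 2 to 3 for microglia minus brain, 2 to 3 for LPS minus TNF and 2 to 2 for LPS minus GM-CSF. For the other glucocorticoid-induced genes in brain tissue, an alternative chosen after seeing the data, leaving out LPS library 3 gave 5 calls in place of 6.

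With the replicate number as a block, calls numbered 3 for LPS in adult microglia, 0 in brain tissue, 2 after TNF (*Pdk4* lost, adjusted p = 0.0671), 3 after GM-CSF, 3 for TNF against GM-CSF and 2 for microglia minus brain. The numbers were not treated as pairs, as not every same-numbered pair correlated over 0.1. In slices the same number does not always mark the same title code (number 5 is 2A in medium and 1B with TNF). The slice block and the slice correlations therefore cannot decide whether slice libraries were paired. Correlations of deviations were -0.033 to 0.021 in adult microglia, -0.078 to 0.043 in brain tissue and 0.041 to 0.184 for slice TNF and medium, where all 9 were positive and 4 were over 0.1, and 2 of 9 were over 0.1 in each GM-CSF pairing. Depth limits *Pdk4*, *Zbtb16*, *Klf9* and *Mt2* in microglia.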
